A study of Homo sapiens with 4 samples.

Results

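The BCL2 family was examined in PANC-1, a human cell line established from a pancreatic ductal carcinoma, after knockdown of SIRT1, an NAD-dependent protein deacetylase. The 10 genes were taken by symbol from tables of 16878 genes and were divided by role into 3 survival proteins (BCL2, BCL2L1 and MCL1), 2 effectors (BAX and BAK1) and 5 BH3-only proteins (BBC3, PMAIP1, BID, BIK and BCL2L11). RNA-seq was performed on 2 Control libraries and 2 siSIRT1 libraries, the latter made 48 h after transfection of small interfering RNA against SIRT1. The Control cells were also transfected for 48 h, with an agent that the labels do not name. All libraries come from the same cell line, and the study lists 1 siRNA sequence for SIRT1. The values are FPKM, that is fragments scaled to transcript length and to the number of mapped fragments, so that levels of different genes can be set side by side per length.

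Proteins of this family decide whether the outer membrane of the mitochondrion stays closed. The effectors BAX and BAK form the pores through which cytochrome c leaves, the survival proteins BCL2, BCL-XL and MCL1 hold the effectors and their activators in check, and the BH3-only proteins report stress by binding the survival proteins or by activating the effectors directly. Carcinoma cells of the pancreas are known to depend more on BCL-XL and MCL1 than on BCL2. Among the BH3-only genes, BCL2L11 is a classical target of FOXO factors.

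SIRT1 itself was measured at 10.46 and 10.25 FPKM in Control replicates 1 and 2, against 1.80 and 2.05 FPKM in the siSIRT1 libraries, a log2 fold change (log2FC) of -1.96 (standard error, SE, 0.11) at an adjusted p of 1.33e-05 by limma. Both siSIRT1 libraries were low in SIRT1. Estimated depths ran from 8740000 to 9125000 reads, and the summed FPKM from 397094 to 426279. Of 6 markers listed for PANC-1, KRT8 lay between 2164.01 and 2745.12 FPKM, and KRT18, KRT19, VIM and CD44 all lay at 224.52 FPKM or above, whereas KRT7 was between 2.89 and 4.04 FPKM. The mesenchymal VIM fell with a log2FC of -0.53 (adjusted p 0.00126, but 0.0953 without Control replicate 1) and CD44 with -0.88 (adjusted p 4.22e-05), while KRT18 and KRT19 rose with 0.26 and 0.25 (adjusted p 0.0350 and 0.0178), which held in 5 of 10 alternative settings each and in the 2 fits that left out a siSIRT1 library but not in the 2 that left out a Control library. KRT8 did not pass (log2FC 0.25, adjusted p 0.0513). Among markers of other cells, LYZ lay between 15.31 and 19.54 FPKM, CD14 between 3.17 and 5.49 FPKM and PTPRC between 0.97 and 1.29 FPKM. The leukocyte list summed to between 19.8 and 25.0 FPKM with the groups overlapping, the endothelial list to between 0.75 and 0.81 FPKM, and the fibroblast list to between 0.06 and 0.14 FPKM, and their part in the results was not tested. In bulk RNA, fewer cells of a type and less RNA per cell cannot be told apart. Nothing in the labels says that the 2 libraries of a group came from separate cultures, so the p-values measure the spread between these libraries, which may be technical.

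Of the 10 genes, 8 had a 4-library mean of 1 FPKM or more and were tested, and BCL2 and BIK fell below that limit. The promoters of 4 genes are shown, since these are the members that passed an adjusted p of 0.05: BAK1, PMAIP1, BID and BCL2L11. Each runs from 250 bases before to 50 bases after the RefSeq start (assembly GRCh38.p14), written 5′ to 3′ on the strand of the gene. Capitals mark GC boxes (GGGCGG on either strand), which are binding sites of SP1-type factors, and in BCL2L11 also a match to the FOXO heptamer GTAAACA. BAK1 lies at chr6:33580227-33580526 on the minus strand, PMAIP1 at chr18:59899746-59900045 on the plus strand, BID at chr22:17774420-17774719 on the minus strand and BCL2L11 at chr2:111120664-111120963 on the plus strand.
BAK1: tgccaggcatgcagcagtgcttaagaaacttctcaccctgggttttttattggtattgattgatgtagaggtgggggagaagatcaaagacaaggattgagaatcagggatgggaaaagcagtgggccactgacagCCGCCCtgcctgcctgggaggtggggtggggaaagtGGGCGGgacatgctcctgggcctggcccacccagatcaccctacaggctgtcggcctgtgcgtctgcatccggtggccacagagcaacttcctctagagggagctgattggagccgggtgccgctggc
PMAIP1: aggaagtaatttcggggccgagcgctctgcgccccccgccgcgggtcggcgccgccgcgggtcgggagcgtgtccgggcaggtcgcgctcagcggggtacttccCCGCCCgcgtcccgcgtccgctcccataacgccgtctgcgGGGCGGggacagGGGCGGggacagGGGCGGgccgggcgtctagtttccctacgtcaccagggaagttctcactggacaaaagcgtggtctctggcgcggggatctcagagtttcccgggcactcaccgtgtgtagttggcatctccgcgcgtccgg
BID: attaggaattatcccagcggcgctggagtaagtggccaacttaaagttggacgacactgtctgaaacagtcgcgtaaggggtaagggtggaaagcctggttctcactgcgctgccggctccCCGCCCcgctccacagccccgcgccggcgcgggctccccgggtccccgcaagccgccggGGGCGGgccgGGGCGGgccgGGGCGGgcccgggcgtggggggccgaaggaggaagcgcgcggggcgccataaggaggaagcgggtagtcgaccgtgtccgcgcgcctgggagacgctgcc
BCL2L11: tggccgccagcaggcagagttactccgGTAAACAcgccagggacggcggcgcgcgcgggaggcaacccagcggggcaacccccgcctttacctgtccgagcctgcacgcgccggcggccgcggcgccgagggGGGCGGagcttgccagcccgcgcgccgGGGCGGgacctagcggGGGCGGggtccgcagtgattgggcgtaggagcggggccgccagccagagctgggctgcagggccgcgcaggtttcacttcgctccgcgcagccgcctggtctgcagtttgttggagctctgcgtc

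The PMAIP1 and BID promoters each held 4 GC boxes, that of BCL2L11 held 3 and that of BAK1 held 2. RefSeq gave a promoter for 8 of the 10 genes, and 5 of these 8 held a GC box, the fifth being BAX. A GC box was found in 44.6% of all 27305 promoters of this length and in 71.1% of those of tested genes. The share was 72.3% among genes that rose and 73.5% among genes that fell, against 70.1% among genes that did not pass. The promoters of PMAIP1, BCL2L11 and BID were rich in CpG, with 42, 39 and 37 CpG dinucleotides against a median of 14 over all promoters. The median over promoters of tested genes was not computed. Among members that did not pass or were not tested, BAX held 38, BCL2 held 31, BCL2L1 held 20 and BBC3 held 5. The BAK1 promoter held 7. The FOXO heptamer (GTAAACA, either strand) began at position -223 from the start of BCL2L11 and was found in no other of the 8 member promoters and in 2.21% of the promoters of tested genes. The E-box CACGTG, which reads the same on both strands, occurred 4 times in the BAX promoter and once in that of BBC3. It occurred at least once in 7.43% of all promoters and in 10.3% of those of tested genes. These matches describe the letters of the windows and not the binding of a factor.

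In Control cells, the levels of the family spanned from under 1 to 81.0 FPKM. BCL2L1, which encodes BCL-XL, stood first at 81.0 FPKM, followed by MCL1 at 47.1, BAX at 34.6, BAK1 at 24.2 and BID at 11.7 FPKM, and each of these was separated from the next by both libraries. BCL2L11 at 8.67 and BBC3 at 8.0 FPKM overlapped, PMAIP1 followed at 3.31 FPKM, and BCL2 and BIK overlapped at the bottom at 0.25 and 0.185 FPKM. After SIRT1 knockdown the first 5 places were the same, but the MCL1 and BAX levels now overlapped, at means of 43.4 and 40.7 FPKM. Among the lower genes the order changed. BBC3 at 6.41 and PMAIP1 at 5.37 FPKM now both stood above BCL2L11 at 4.37 FPKM, with no overlap between neighbours. The plot of levels by library shows the 10 genes side by side.

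**Figure D1:**
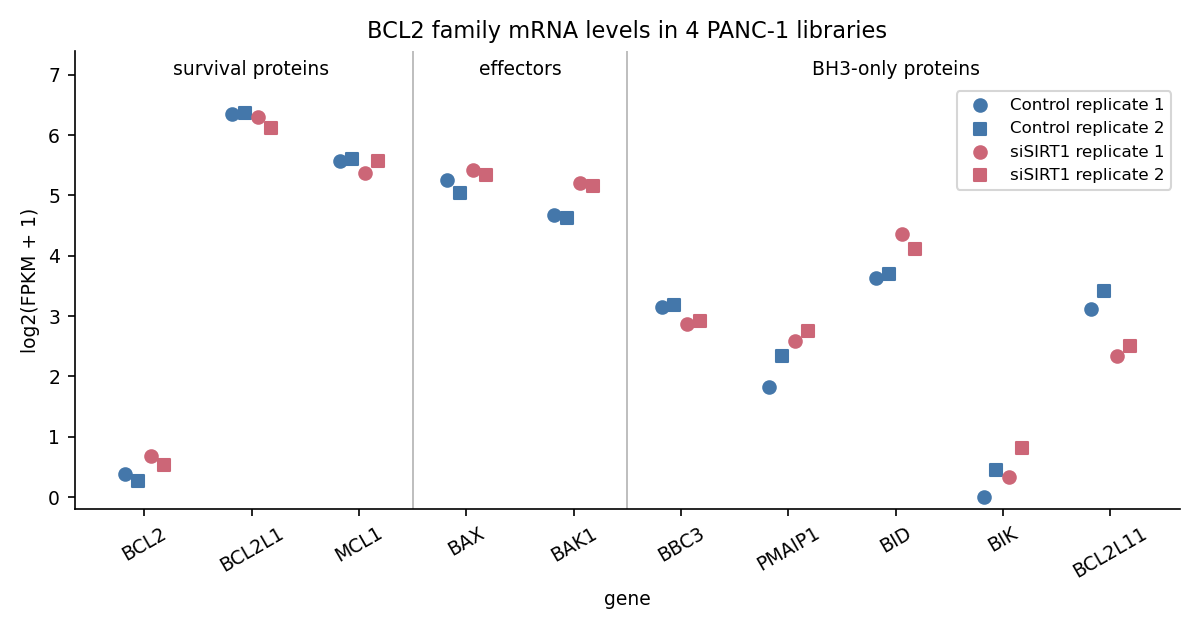
Level of each of the 10 genes as log2(FPKM + 1) on the vertical axis, with genes by role along the horizontal axis, Control in blue, siSIRT1 in red, circles for replicate 1 and squares for replicate 2. BCL2L1 is uppermost in all 4 libraries, BCL2 and BIK lie near 0, the BAK1 and BID points of siSIRT1 lie above those of Control, and the BCL2L11 points of siSIRT1 lie below them.

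Across all 12191 genes tested, 37.1% passed an adjusted p of 0.05 by limma, 24% higher and 13.1% lower in siSIRT1. The higher genes numbered 2930 and the lower ones 1591, and these numbers were 2023 and 2053 under median-of-ratios scaling. Of the 8 tested members 4 passed, with BAK1, PMAIP1 and BID higher and BCL2L11 lower. With so few genes, these counts are a description to be read against that background and do not set the family apart. The median log2FC of the 8 was 0.06, and that of all genes tested was 0.07. The groups did not overlap in all 8 tested members, where 69% of all genes showed the same. Under the alternative settings the number of members that passed ran from 3 to 7. It was 3 with no filter on low values, where 21.5% of all genes passed, and 7 with the GC trend removed, where 37.4% passed. It was 4 with a pseudocount of 0.1 (36.9% of all genes) and without the mean-variance trend (32.8%), and 5 with median-of-ratios scaling (33.4%) and with the length trend removed (38.3%). It was 6 with quantile normalization (35.1%), upper-quartile scaling (34.3%), equal FPKM sums (34%) and the replicate number as a block (44.2%). It was 4 in each fit that left out 1 library, with a background of 22.5% without Control replicate 1, 22.1% without Control replicate 2, 33.8% without siSIRT1 replicate 1 and 37.8% without siSIRT1 replicate 2.

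Among the survival proteins none passed the test. Gene positions are given on GRCh37, as GENCODE annotates them. BCL2L1, on chromosome 20 from 30252261 to 30310671 on the minus strand, was measured at 80.68 and 81.30 FPKM in Control replicates 1 and 2, against 77.72 and 68.63 FPKM in the siSIRT1 libraries. Both siSIRT1 libraries were lower, replicate 1 lying nearer to the Control libraries than to siSIRT1 replicate 2. The fitted log2FC was -0.15 (95% interval -0.31 to 0.01) with an adjusted p of 0.138 by limma, over about 1546 to 1850 reads per library. Its call changed with the setting. It passed in 5 of the 10 alternative settings, upper-quartile scaling (adjusted p 0.0359) and removal of the GC trend (0.0131) among them. Its log2FC was -0.23 with an adjusted p of 0.0215 by quantile normalization, -0.21 and 0.0216 with equal FPKM sums, and -0.25 and 0.00951 with the trend on transcript length removed, whereas median-of-ratios scaling gave an adjusted p of 0.0505. It was -0.24 without siSIRT1 replicate 1 (adjusted p 0.0180) and -0.06 without siSIRT1 replicate 2 (adjusted p 0.401). The table pools the 8 RefSeq transcripts of BCL2L1, so the long survival form and the short death-promoting form of the protein are not separated.

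MCL1, on chromosome 1 from 150547034 to 150552086 on the minus strand, encodes a protein that is turned over rapidly. MCL1 read 46.53 and 47.63 FPKM in Control replicates 1 and 2, against 40.39 and 46.43 FPKM in the siSIRT1 libraries. siSIRT1 replicate 2 lay just below Control replicate 1, and siSIRT1 replicate 1 was the low library. The fitted log2FC was -0.12 (95% interval -0.29 to 0.06) with an adjusted p of 0.266, and it was -0.22 with an adjusted p of 0.0324 without siSIRT1 replicate 2 and -0.02 with an adjusted p of 0.815 without siSIRT1 replicate 1. The gene overlaps ADAMTSL4 on the other strand and, among others, ADAMTSL4-AS1, RN7SL473P and RN7SL600P on the same strand. Overlaps are not listed here for every member. BCL2, the founding member of the family, lies on chromosome 18 from 60790579 to 60987002 on the minus strand. It was measured at 0.30 and 0.20 FPKM in Control replicates 1 and 2, against 0.61 and 0.44 FPKM in the siSIRT1 libraries. These values rest on about 18 and 12 reads in Control and on about 36 and 27 reads in siSIRT1. The siSIRT1 libraries were the higher ones, but in the fit without a filter on low values the adjusted p was 0.0868, with a log2FC of 0.29 (95% interval 0.06 to 0.51) on the log2(FPKM + 1) scale. BCL2 held at most 0.514% of the summed FPKM of the 3 survival genes in any library. BCL2L1 held 63.1% ± 0.222 of it in Control and 62.4% ± 4.27 in siSIRT1 (SD, n = 2), and MCL1 held nearly all of the rest.

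Of the effectors, BAK1 rose. The gene lies on chromosome 6 from 33540329 to 33548053 on the minus strand. It was measured at 24.68 and 23.67 FPKM in Control replicates 1 and 2, against 35.85 and 34.67 FPKM in the siSIRT1 libraries. The libraries of each group lay close together and the groups were far apart, with means of 24.2 ± 0.714 and 35.3 ± 0.834 FPKM (SD, n = 2), a rise of 45.9%. Its log2FC was 0.53 (SE 0.07) at an adjusted p of 0.000571 by limma. BAK1 passed under all 10 alternative settings and in all 4 fits that left out 1 library, with the lowest log2FC, 0.41, after removal of the trend on transcript length. The gene overlaps GGNBP1 on the other strand. The annotation also holds the processed pseudogenes BAK1P1 and BAK1P2, and how reads shared with them were counted is not given in the sources used here, so the BAK1 level is uncertain to that extent.

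BAX, the other effector, on chromosome 19 from 49458132 to 49465055 on the plus strand, did not pass. It was measured at 37.20 and 31.95 FPKM in Control replicates 1 and 2, against 41.96 and 39.49 FPKM in the siSIRT1 libraries. The Control libraries were farther apart than the siSIRT1 libraries. The fitted log2FC was 0.23 (95% interval 0.04 to 0.42) with an adjusted p of 0.0564. It became 0.34 with an adjusted p of 0.0401 without Control replicate 1, 0.13 with an adjusted p of 0.457 without Control replicate 2, and 0.01 with an adjusted p of 0.892 once the trend on transcript length was removed. The canonical BAX transcript has 795 bases. The share of BAK1 in the effector FPKM went from 39.9% and 42.6% in Control to 46.1% and 46.8% in siSIRT1. BAX was the more abundant effector in all 4 libraries, at 1.51 and 1.35 times BAK1 in Control and 1.17 and 1.14 times in siSIRT1.

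The BH3-only genes moved in both directions. BCL2L11, which encodes BIM, an activator of BAX and BAK that binds all survival proteins, lies on chromosome 2 from 111878491 to 111926021 on the plus strand. BCL2L11 read 7.69 and 9.65 FPKM in Control replicates 1 and 2, against 4.08 and 4.66 FPKM in the siSIRT1 libraries. Both siSIRT1 libraries lay well below both Control libraries, and the mean fell by 49.6%. Its log2FC was -0.84 (SE 0.13) at an adjusted p of 0.00144 by limma, over about 346 and 442 reads in Control and 179 and 211 in siSIRT1. It passed under all 10 alternative settings, with adjusted p-values from 2.34e-05 to 0.0239, and in all 4 fits that left out 1 library. The table pools 18 RefSeq transcripts of BCL2L11, and the gene overlaps the long non-coding MIR4435-2HG on the other strand. Whether the counting used strand is not given in the sources used here, and reads of the pair could not be told apart without it.

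BID, whose protein is cut by caspase-8 and so carries the death receptor signal to the mitochondrion, lies on chromosome 22 from 18216904 to 18257235 on the minus strand. Its values were 11.46 and 11.91 FPKM in Control replicates 1 and 2, against 19.51 and 16.32 FPKM in the siSIRT1 libraries. The groups were clearly separated, although the siSIRT1 libraries differed more from each other than the Control libraries did. The mean rose by 53.3%, from 11.7 ± 0.318 to 17.9 ± 2.26 FPKM (SD, n = 2), with a log2FC of 0.57 (SE 0.10) at an adjusted p of 0.00254. BID passed under all 10 alternative settings and in all 4 fits that left out 1 library.

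PMAIP1, which encodes NOXA, a selective partner of MCL1, lies on chromosome 18 from 57567228 to 57571537 on the plus strand. PMAIP1 read 2.54 and 4.07 FPKM in Control replicates 1 and 2, against 4.99 and 5.75 FPKM in the siSIRT1 libraries. The groups did not overlap, but the Control libraries were far apart, with about 41 and 68 reads against 79 and 94 in siSIRT1. The fitted log2FC was 0.59 (SE 0.17) at an adjusted p of 0.0285 by limma. The call depended on the setting. It was lost in 3 of the 10 alternative settings, with an adjusted p of 0.125 with no filter on low values, 0.0502 without the mean-variance trend and 0.0505 with the length trend removed, and in 3 of the 4 fits that left out 1 library. Its log2FC was 0.33 without Control replicate 1 and 0.84 without Control replicate 2, and the adjusted p was 0.211 and 0.00498. Without siSIRT1 replicate 1 or siSIRT1 replicate 2, the adjusted p was 0.0634 and 0.130.

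BBC3, which encodes PUMA, lies on chromosome 19 from 47724081 to 47734456 on the minus strand. BBC3 read 7.92 and 8.09 FPKM in Control replicates 1 and 2, against 6.31 and 6.52 FPKM in the siSIRT1 libraries. The pairs were tight and the groups apart, but the log2FC of -0.28 (95% interval -0.51 to -0.05) had an adjusted p of 0.0541. It was past the threshold in 8 of the 10 alternative settings, with -0.36 and an adjusted p of 0.0208 under median-of-ratios scaling, and in 0 of the 4 fits that left out 1 library, where the adjusted p ran up to 0.259. BIK, found at the endoplasmic reticulum and encoded on chromosome 22 from 43506756 to 43525718 on the plus strand, was listed at 0.00 and 0.37 FPKM in the Control libraries against 0.26 and 0.75 FPKM in the siSIRT1 libraries, or at about 0, 3, 2 and 6 reads. The groups overlapped, and no difference could be detected from so few reads.

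Within the BH3-only members the sums overlapped between groups. The shares held by BID, BCL2L11, BBC3 and PMAIP1 did not overlap, and that of BIK did. These sums and shares leave out the BH3-only relatives BAD and BMF, which both rose. BAD alone stood at 30.09 and 29.67 FPKM in Control against 55.67 and 50.49 FPKM in siSIRT1. The summed FPKM of the BH3-only members stood at 29.6 and 34.1 in Control against 35.2 and 34.0 in siSIRT1. BID held 38.7% and 34.9% of it in Control and 55.5% and 48.0% in siSIRT1, and BCL2L11 held 26.0% and 28.3% against 11.6% and 13.7%. The ratio of BID to BCL2L11 within a library stood at 1.49 and 1.23 in Control against 4.78 and 3.50 in siSIRT1. A ratio within a library does not depend on a scaling by 1 factor per library.

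**Figure D2:**
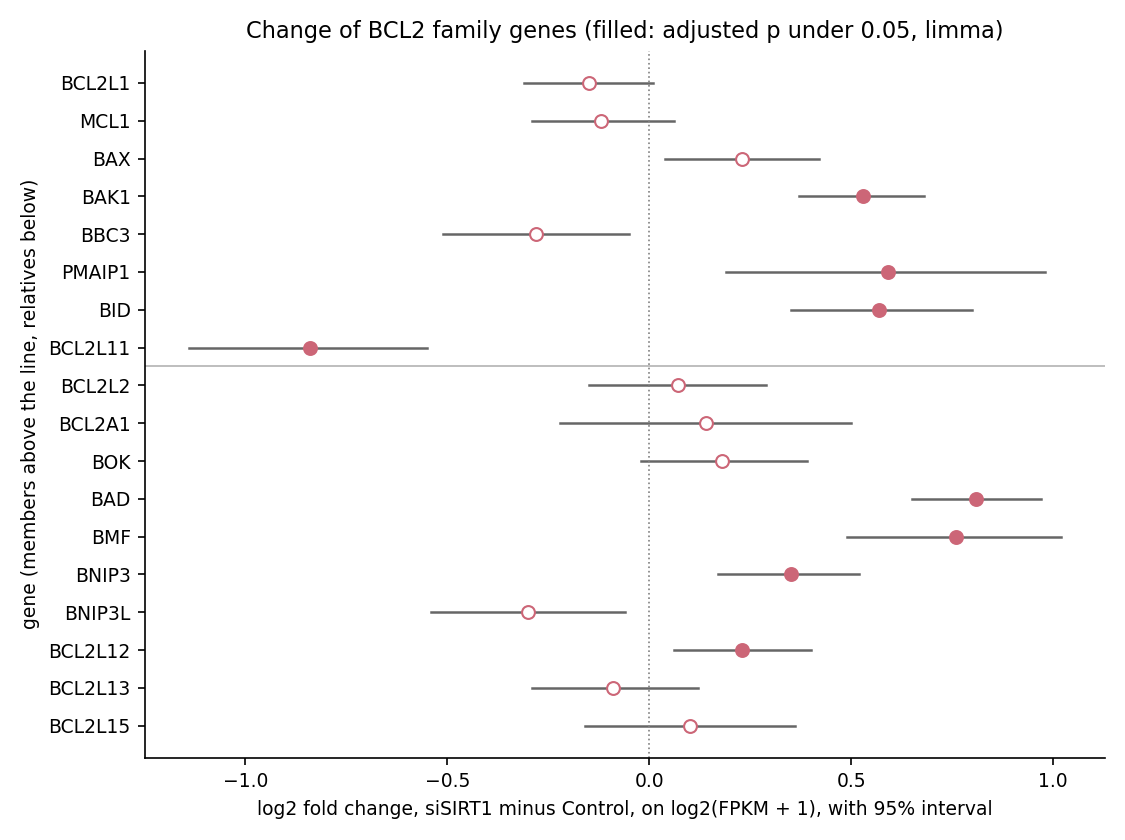
Log2 fold change between siSIRT1 and Control with its 95% interval for the 8 tested members and for 10 tested relatives of the family, filled where the adjusted p was under 0.05. BCL2L11 is the only filled point left of 0 at -0.84, and BAD and BMF reach 0.81 and 0.76.

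Set against each other by role, the ratio of effector to survival mRNA was higher in both siSIRT1 libraries. The survival genes summed to 128 and 129 FPKM in Control and to 119 and 116 FPKM in siSIRT1, and the effectors to 61.9 and 55.6 FPKM and to 77.8 and 74.2 FPKM. The ratio of effectors to survival genes stood at 0.485 and 0.431 in Control against 0.655 and 0.642 in siSIRT1. The ratio of BH3-only members, without BAD and BMF, to survival genes stood at 0.232 and 0.264 in Control against 0.296 and 0.294 in siSIRT1. In both ratios the siSIRT1 libraries were the higher ones, and the ratios are given as values with no test. They were not recomputed with the trend on transcript length removed. That removal took the log2FC of BAX from 0.23 to 0.01 and that of BAK1 from 0.53 to 0.41. The log2FC of BCL2L1 went from -0.15 to -0.25 and that of MCL1 from -0.12 to -0.17. The smallest two-sided p of an exact permutation test of 2 against 2 libraries is 0.333. The ratio of BAK1 to BCL2L1 stood at 0.306 and 0.291 in Control against 0.461 and 0.505 in siSIRT1, and that of BAX to BCL2L1 was 0.461 and 0.393 against 0.540 and 0.575. The ratio of BCL2L11 to BCL2L1 went the other way, from 0.0953 and 0.119 to 0.0525 and 0.0679. The ratio of BCL2L1 to MCL1 stood at 1.73 and 1.71 in Control against 1.92 and 1.48 in siSIRT1, so that the siSIRT1 libraries lay on either side of the Control pair. The widely quoted ratio of BAX to BCL2 stood at 124 and 160 in Control against 68.8 and 89.8 in siSIRT1, but it rests on the few reads of BCL2.

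**Figure D3:**
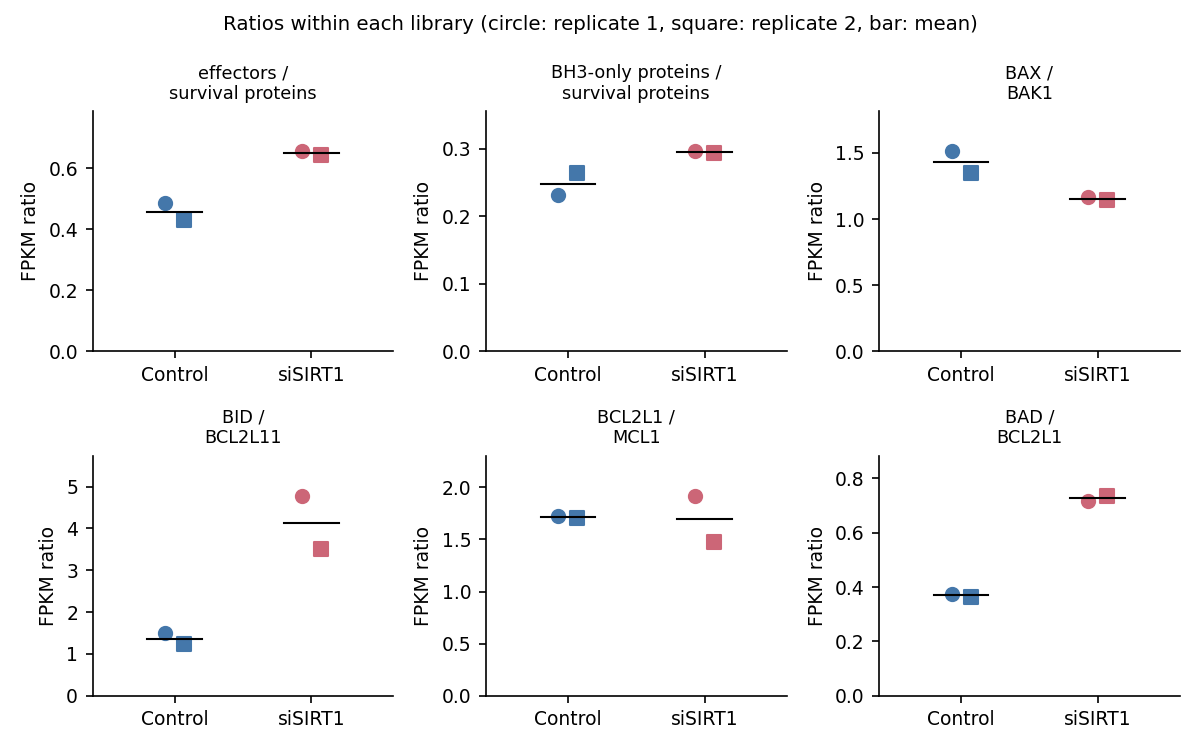
FPKM ratios within each library, with Control in blue, siSIRT1 in red, circles for replicate 1, squares for replicate 2 and bars for the mean of each group. The ratio of effectors to survival proteins lies at 0.485 and 0.431 in Control and at 0.655 and 0.642 in siSIRT1, and the ratio of BCL2L1 to MCL1 overlaps between the groups.

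The gene whose profile lay nearest to that of BAK1, the member with the lowest adjusted p, was MROH6, followed by ARPC1A and COX7A2. The Euclidean distances over the 4 libraries, on centred log2(FPKM + 1) values, were 0.0116, 0.0139 and 0.0164. MROH6 was measured at 9.89 and 9.35 FPKM in Control replicates 1 and 2, against 14.50 and 14.01 FPKM in the siSIRT1 libraries.

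Outside the 10 genes, 13 further relatives of the family were examined, of which 10 were tested and 4 passed, where 37.1% of all genes passed, and these 4 were higher, as were 24% of all genes. BAD, a BH3-only protein that binds BCL-XL and BCL2 and is silenced by phosphorylation, was measured at 30.09 and 29.67 FPKM in Control replicates 1 and 2, against 55.67 and 50.49 FPKM in the siSIRT1 libraries. Its log2FC was 0.81 (SE 0.07) at an adjusted p of 8.81e-05 by limma. BAD stood above BID in all 4 libraries, and its ratio to BCL2L1 stood at 0.373 and 0.365 in Control against 0.716 and 0.736 in siSIRT1. BMF, a BH3-only protein linked to loss of attachment, was measured at 2.71 and 2.69 FPKM in Control replicates 1 and 2, against 5.20 and 5.30 FPKM in the siSIRT1 libraries, a log2FC of 0.76 at an adjusted p of 0.00131. BNIP3, a mitophagy receptor, rose from 27.2 ± 1.97 to 34.8 ± 1.58 FPKM (SD, n = 2), at an adjusted p of 0.00788 that was 0.0981 without Control replicate 2. BNIP3L, also a mitophagy receptor, read 8.79 and 9.99 FPKM in Control against 7.20 and 7.66 FPKM in siSIRT1. Its log2FC of -0.30 had an adjusted p of 0.0510 and was past the threshold in 8 of the 10 alternative settings and in 0 of the 4 fits that left out 1 library. BCL2L12 rose with a log2FC of 0.23 (adjusted p 0.0388). It passed in 2 of the 10 alternative settings only, and the adjusted p was 0.0999 to 0.283 without Control replicate 1, Control replicate 2 or siSIRT1 replicate 1. The survival relatives BCL2L2 and BCL2A1 did not pass, nor did the pore-forming BOK, which was measured at 21.06 and 19.31 FPKM in Control replicates 1 and 2, against 24.75 and 21.44 FPKM in the siSIRT1 libraries. BCL2L10, HRK and BCL2L14 were at no more than 0.19 FPKM in any library.

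Downstream of the mitochondrion, 3 of 6 genes of the apoptosome and of released proteins passed, and all 3 rose, where 37.1% of all genes passed and 24% rose. CYCS, which encodes cytochrome c, rose from 19.8 ± 0.184 to 34.9 ± 1.46 FPKM (SD, n = 2), a log2FC of 0.79 at an adjusted p of 9.89e-05 by limma, although it has processed pseudogenes of similar sequence and its level is uncertain to that extent. APAF1, the scaffold that cytochrome c assembles, rose from 3.87 ± 0.226 to 7.06 ± 0.608 FPKM, a log2FC of 0.73 at an adjusted p of 0.00166. The nuclease gene ENDOG rose with a log2FC of 0.61. Of 7 caspases only CASP2 passed, with a log2FC of 0.52 at an adjusted p of 0.00356. The initiator CASP9 was measured at 5.44 and 5.44 FPKM in Control replicates 1 and 2, against 5.27 and 5.07 FPKM in the siSIRT1 libraries.

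Of 5 genes of the inhibitor of apoptosis protein family, BIRC3, BIRC5 and BIRC2 rose, with log2FCs of 0.69, 0.44 and 0.39. XIAP and BIRC6 did not pass. For this list and the next, the background over all genes tested was 37.1% passing, 24% higher and 13.1% lower. BIRC2 had an adjusted p of 0.0042 that was 0.0553 without Control replicate 2. BIRC5 encodes survivin, which also serves in mitosis. Of the 7 death receptor and adaptor genes tested, TNFRSF1A fell from 127 ± 2.33 to 74.9 ± 6.10 FPKM (SD, n = 2), a log2FC of -0.76 at an adjusted p of 0.00011. TNFRSF10B, the TRAIL receptor DR5, fell from 34.3 ± 0.127 to 22.8 ± 1.13 FPKM, a log2FC of -0.57 at an adjusted p of 0.00046. RIPK1 rose with a log2FC of 0.30 (adjusted p 0.0211). This held in 5 of the 10 alternative settings, and the adjusted p was 0.190 without Control replicate 1 and 0.0701 without Control replicate 2.

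Of the 8 transcription factor genes known to drive BH3-only genes, 7 were tested and 5 passed. FOXO3 was measured at 14.13 and 14.54 FPKM in Control replicates 1 and 2, against 12.52 and 15.07 FPKM in the siSIRT1 libraries (adjusted p 0.692 by limma). DDIT3, which encodes the stress factor CHOP, fell with a log2FC of -0.73 (adjusted p 0.000274). JUN fell by 0.66 on the log2 scale, and ATF4 fell by 0.31 with an adjusted p of 0.00481 that was 0.0717 without Control replicate 1 and 0.0572 without Control replicate 2. E2F1 rose with a log2FC of 0.50, and TP73 rose from 1.88 ± 0.24 to 3.38 ± 0.106 FPKM at an adjusted p of 0.00699 that was 0.0608 without Control replicate 2. Of 5 enzymes that add ubiquitin to MCL1 or remove it, only FBXW7 passed, lower with a log2FC of -0.37. Its adjusted p of 0.0437 was lost with no filter on low values (0.0788) and without Control replicate 1, Control replicate 2 or siSIRT1 replicate 1 (0.112 to 0.225). Over all 10 lists outside the members, 20 of 47 tested genes passed, or 42.6%, 14 higher and 6 lower, against the background of 37.1%.

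**Figure D4:**
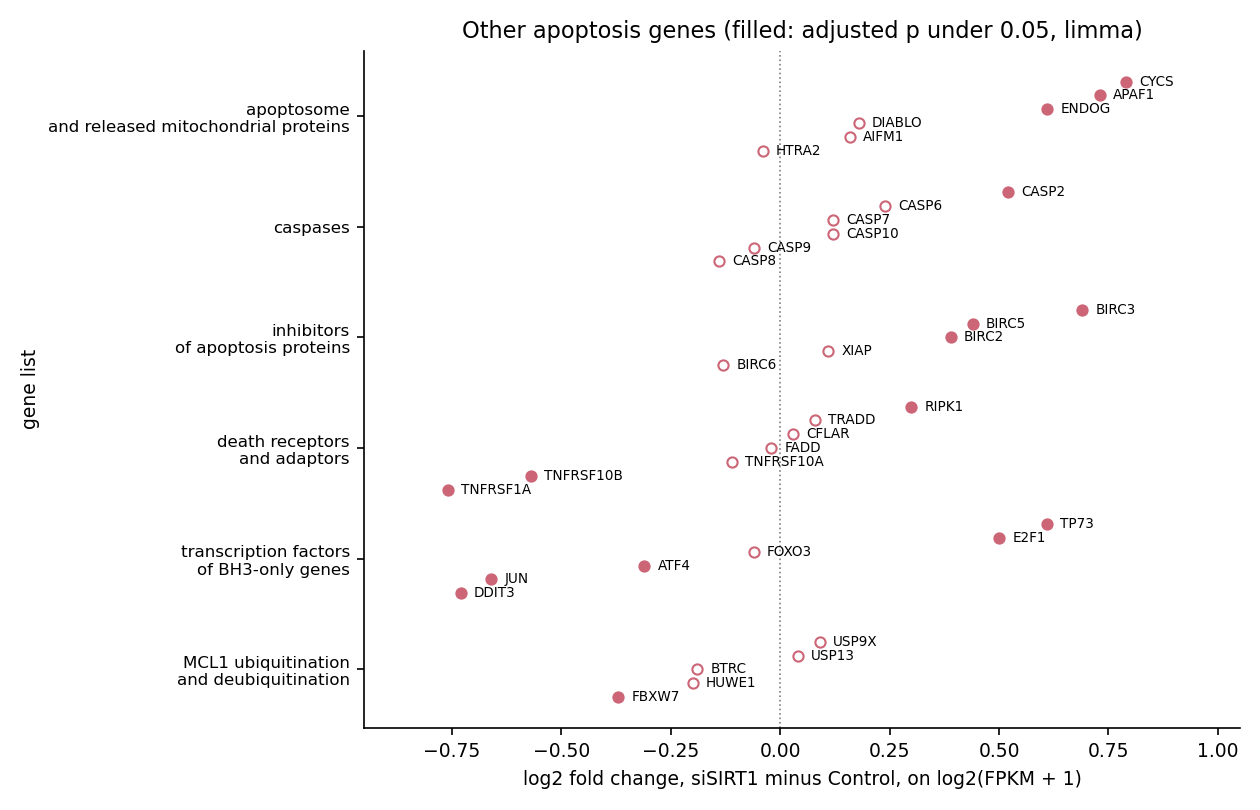
Log2 fold change between siSIRT1 and Control for tested genes of 6 further apoptosis lists, 1 point per gene reported, filled where the adjusted p was under 0.05. CYCS and APAF1 lie farthest right, at 0.79 and 0.73, and TNFRSF1A and DDIT3 farthest left, at -0.76 and -0.73.

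The siRNA was compared with the member transcripts, because siRNAs can act on other transcripts through bases 2 to 8 of a strand, the seed, which is in capitals for the strand that the study lists and for its complement.
Listed strand: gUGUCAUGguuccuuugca
Complementary strand: uGCAAAGGaaccaugacac
The listed strand has the sense of the SIRT1 mRNA, so that the complementary strand is the one that pairs with it. Its 19 bases lie in coding sequence across a splice junction, 8 in exon 5 (chromosome 10 from 69666687 to 69666694, plus strand, GRCh37) and 11 in exon 6 (69667803 to 69667813). The site matching the seed of the complementary strand, CCTTTGC, occurred once in the untranslated 3′ end of the canonical BAK1 transcript, and that of the listed strand, CATGACA, once in that of BID, and both genes rose. None of the other 8 members held either site, BCL2L11 with its 4213 bases included. Over 11932 tested genes, CCTTTGC was present in 15.6% and CATGACA in 10.2%. The median log2FC was 0.06 with and 0.08 without CCTTTGC, and 0.04 with and 0.08 without CATGACA. The part of these sites in the results was not tested.

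The plot of settings shows which calls depended on the fit, all fits being made on the same libraries. BAK1, BID and BCL2L11 passed in all 14 alternative fits, with log2FCs of 0.41 to 0.56, 0.45 to 0.69 and -0.99 to -0.70. The calls of BCL2L1, MCL1, BAX, BBC3 and PMAIP1 each changed with at least 1 setting, while no member changed sign.

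**Figure D5:**
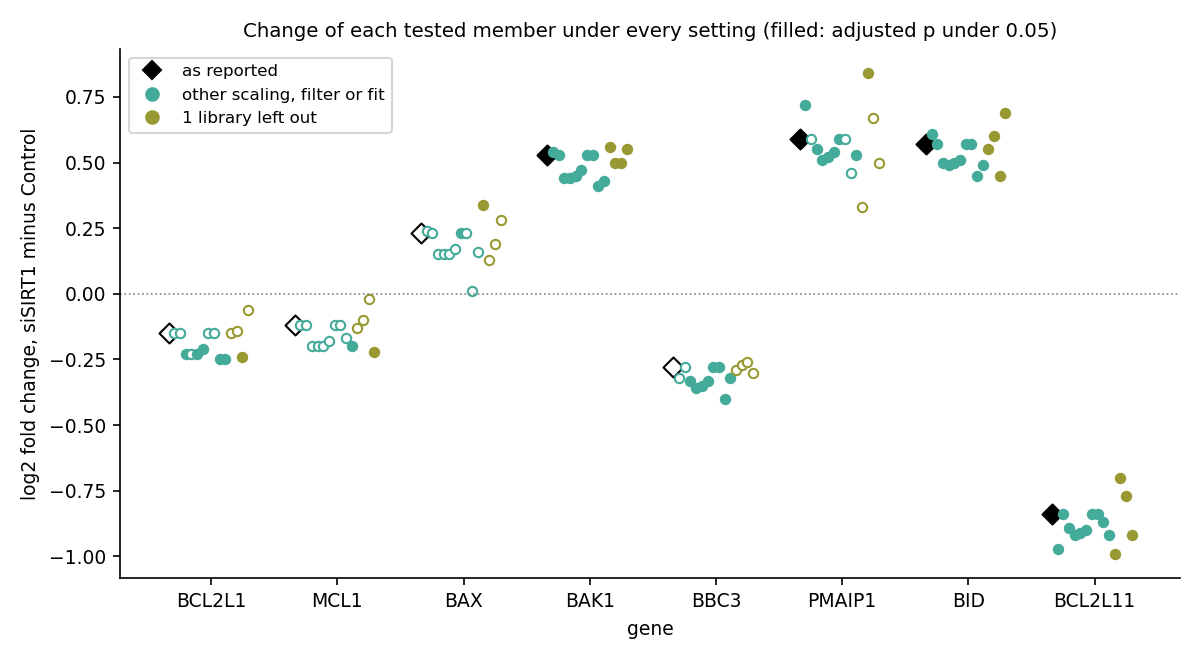
Log2 fold change of each of the 8 tested members in the fit as reported (black diamonds), under 10 other scalings, filters or fits (green circles) and with 1 library left out (olive circles), filled where the adjusted p was under 0.05. All points of BAK1, BID and BCL2L11 are filled, whereas BAX reaches 0.01 with the length trend removed.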

How the data were processed

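RNA-seq of PANC-1 cells was deposited as 1 table per library, with FPKM values that the authors rounded to 2 decimals for 16878 genes named by Entrez identifier, RefSeq transcripts and symbol. The submitters' processing notes name HISAT, Bowtie2 and RSEM. Their versions, the genome build, strand use and any scaling between libraries are not given in the sources used here. Isoforms are pooled into the gene. Identifiers were matched to RefSeq symbols (16846 matched).

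The test was limma (version 3.58.1, R 4.3.3) on log2(FPKM + 1), its prior variance following the mean level, for 12191 genes whose 4-library mean reached 1 FPKM, two-sided, adjusted by Benjamini-Hochberg over all of them, with a threshold of 0.05. Fold changes on this scale understate changes of low genes. The fit was tested on simulated data, in 1 draw of which the share of false calls was above the nominal threshold. Depth was estimated from the steps of low FPKM values in single-exon genes, and reads per gene are approximate, from the canonical GENCODE 44 transcript (GRCh37). Intervals and read numbers cover neither mapping nor isoform choice.

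The members, gene lists, tests and alternatives were chosen with earlier results of these data known. All 10 members are named. From the other lists, genes that passed are named. Unpassed genes named beside them (BOK, BNIP3L, CASP9, FOXO3, XIAP and others) were picked with their values already known. The genes most like the member with the lowest adjusted p were the 3 at the smallest Euclidean distance.

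Alternatives comprised 0.1 as pseudocount, leaving low values unfiltered, quantile, median-of-ratios, upper-quartile and equal-sum scaling, the replicate number as a block, no mean-variance trend, removal of each library's lowess trend (span 0.3) on transcript length or GC content, and leaving out each library in turn. CD3E and PDGFRA, listed as cell markers, had no match by symbol, so the leukocyte and fibroblast sums leave them out. Some genes of the lists enter the counts but are not reported here.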

Additional observations from a re-analysis of the deposited data

How the results depend on the processing

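BAK1, BID and BCL2L11 kept direction and call under every alternative tried, and so did SIRT1. Over the 8 tested members and SIRT1, no alternative reversed a direction, 102 of the 126 values kept their side of the threshold, 18 moved past it and 6 fell short of it. The number of members that passed was 4, and it was 7 with the GC trend removed (BCL2L1, MCL1 and BBC3 being the added genes). Which member passed beside BAK1, BID and BCL2L11 differed between the fits that left out 1 library. The cause was not tested. The number of genes that passed was 4521. With 1 library left out it ran from 2691 (without Control replicate 2) to 4608 (without siSIRT1 replicate 2), and it was 2744 without Control replicate 1. Every fit that left out 1 library had fewer samples, and its lone library was assumed to vary like those of the other group. Why the number was lower without a Control library was not tested. The number for the other apoptosis lists was 20 and ran from 13 (without Control replicate 2) to 24 (without siSIRT1 replicate 2). Under median-of-ratios scaling the difference in summed FPKM between siSIRT1 and Control went from -11.2 to -18.6 for the survival genes and from 17.2 to 13.1 for the effectors, while ratios within a library do not change under a scaling by 1 factor per library. They were not recomputed under quantile normalization or the trend removals. Rises made up 2930 of 4521 calls as reported and 2023 of 4076 under median-of-ratios scaling.

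The libraries of the 2 groups share replicate numbers, but nothing says that a number marks a shared culture or day, and deviations of same-numbered libraries from their group means correlated at 0.123 across genes with only 2 pairs. Under a block on the replicate number, 5393 genes, 6 members (BAX and BBC3 being added) and 23 genes of the other lists passed.

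Depth limits BCL2 and BIK, which rest on at most 36 and 6 reads in a library.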
